A study of Caenorhabditis elegans with 8 samples.

Results

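The comparison of prde-1 with WT worms uses 4 of the 8 small RNA libraries of the series, 2 for each genotype, chosen by their genotype labels, and covers all 9742 listed piRNAs. The libraries come from whole Caenorhabditis elegans worms that were untreated; the sources used here give neither the prde-1 allele nor the age of the worms. The series is about casein kinase II and TOFU-4 in piRNA production, and prde-1 is a mutant of the same transcription machinery. The other libraries, 2 from prg-1 worms and 2 from kin-3 worms cultured with 500 µM IAA (auxin), enter below as further reference genotypes and share in the estimate of the spread. No label tells whether the pair of libraries for each genotype stems from different worm cultures. The p-values therefore rest on library-to-library spread alone, and that spread may be technical. Whole worms were used, so fewer germ cells and less piRNA per germ cell cannot be told apart.

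piRNAs of C. elegans, also called 21U-RNAs, are germline small RNAs of 21 nt that begin with U and guide the Piwi protein PRG-1 to foreign and self transcripts. Most are made from many separate small genes gathered in a pair of clusters on chromosome IV, each transcribed by RNA polymerase II as a short capped precursor. A sequence motif upstream of these genes is bound by the upstream sequence transcription complex, which holds PRDE-1, SNPC-4, TOFU-4 and TOFU-5, and prde-1 mutants are known to lack precursors of motif-dependent piRNAs. A further class of 21U-RNAs without the motif is known to arise near transcription start sites across the genome.

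The prde-1 libraries were the deepest of the series, with scaling totals of 5337646 and 5608712 reads against 1342764 and 913321 in WT. The values are RPM, reads per 1000000 of that total, so 1 read stood for 0.187 and 0.178 RPM in prde-1 and for 0.745 and 1.09 RPM in WT. Reads at listed piRNAs numbered 2057 and 2257 in prde-1 and 17895 and 11907 in WT. A piRNA without a prde-1 read is bounded by 3 reads of the pooled total, 0.274 RPM, and one without a WT read by 1.33 RPM. These bounds and all intervals below cover counting error only.

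The loss of piRNAs in prde-1 was nearly complete at chromosome IV, and what remained was concentrated at a few loci of other kinds. Of 4787 piRNAs with a WT read, 4618 had none in prde-1 although the prde-1 libraries were deeper. A further 58 had a prde-1 read and no WT read, 169 had reads in both genotypes, and 4897 had none in either. The number with a read was 3818 and 3220 in the WT libraries and 127 and 130 in the prde-1 libraries. Thinned to 913321 reads, the expected number was 3214 ± 9.08 in WT and 37.3 ± 1.30 in prde-1 (SD, n = 2). With 2 libraries against 2 the exact permutation test gives p = 0.333, the smallest it can give, both for this number and for the summed level.

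The summed level of listed piRNAs was 13327 and 13037 RPM in the WT libraries and 385 and 402 RPM in the prde-1 libraries, a remainder of 2.99% of WT (89.9% after TMM rescaling, which assumes that most piRNAs do not change). A few loci made up most of that remainder. The locus 21ur-1430 alone held 57.3% of the prde-1 level, 4 loci held 85.1% and 10 loci held 91.2%. In WT the highest 10 loci held 7.76% and the highest locus 1.53%. Without 21ur-1430 the prde-1 libraries stood at 168 and 169 RPM, 1.28% of WT.

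**Figure D1:**
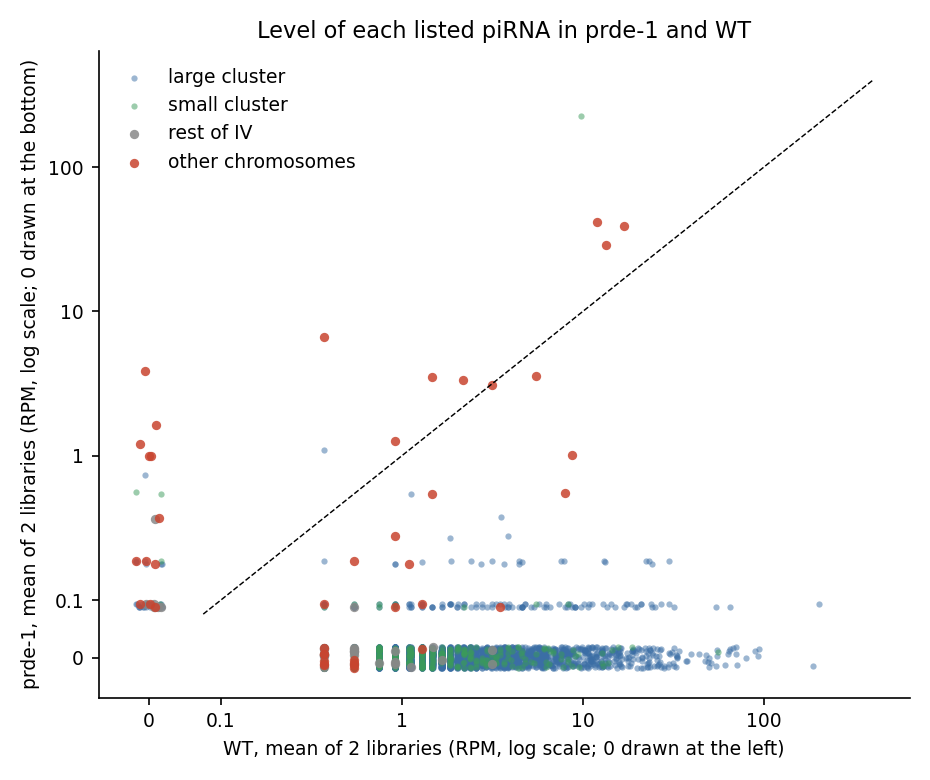
Mean level of each piRNA with a read in WT or prde-1, in RPM on log axes with 0 drawn at the edge, coloured by position; points at 0 are spread slightly along that axis, and the dashed line marks equal levels. Nearly all cluster piRNAs lie at the bottom, without a prde-1 read, while 21ur-1430 at 226 RPM and loci on other chromosomes lie above the line.

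For single piRNAs, limma called 683 of 695 tested lower in prde-1 (98.3% of those tested) and 6 higher (0.863%), and 6 passed in neither direction. The tested piRNAs are those whose level averaged 1 RPM or more across all 8 libraries. A call means a Benjamini-Hochberg adjusted p under 0.05. Most cluster loci are near 0 in all 3 mutant genotypes and passed this filter through their WT level. The high share of lower calls therefore follows from the filter and is given as a description only. Without a filter, 2216 of 4878 piRNAs were called lower and 9 higher. On the large cluster, chromosome IV from 13 Mb to the end, 638 of 8018 loci passed the filter, 1 of which was not called lower. That piRNA, cel-piR-15414, stood at 2.23 and 0 RPM in WT and at 0.375 and 0.713 RPM in prde-1 (limma adjusted p = 0.854). It passed the filter only with the help of a kin-3 library, where it stood at 8.80 RPM. It overlaps 21ur-6729 with an offset of 1 nt, so reads of the pair may be split between them. 21ur-6729 had 12 prde-1 reads and 1 WT read, at 1.31 and 0.891 RPM in prde-1 and 0.745 and 0 RPM in WT.

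The most abundant WT piRNAs show how deep the loss went. 21ur-6307 (chromosome IV 14577635 to 14577655, minus strand, outside coding genes) stood at 211 and 193 RPM in the WT libraries and at 0.187 and 0 RPM in the prde-1 libraries. That is 1 read against 459 (log2 difference -7.54 with SE 0.34; adjusted p in limma = 6.0e-06). 21ur-5695 (14310785 to 14310805, minus strand, antisense in an intron of Y64G10A.7) had 181 and 192 RPM in WT and no prde-1 read, so that it was at least 680-fold lower against the bound of 3 pooled reads.

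The other 8 of the 10 highest had no prde-1 read either, and their bounds ran from 247-fold to 341-fold lower. 21ur-2934, antisense in an intron of Y37A1A.4, had 96.1 and 90.9 RPM in WT. 21ur-2822, outside coding genes, had 90.9 and 95.3 RPM. 21ur-2741 lies sense in an intron of egl-23, a potassium channel subunit gene, and had 70.7 and 71.2 RPM. 21ur-13680 lies antisense to coding sequence of nhr-229, of the nuclear hormone receptor family, and had 67.8 and 72.3 RPM. WT levels of 21ur-7923, 21ur-5410, 21ur-7986 and 21ur-5714 lay between 59.6 and 97.4 RPM in single libraries. The groups do not overlap at any of these loci. These loci were picked by their WT levels, so this is a description only. Their p-values were 3.4e-04 or smaller after adjustment by limma, with SE from 0.03 to 0.69; the small SE come from sharing the spread with genotypes listed at 0, and the largest is that of 21ur-13680, where a kin-3 library had reads.

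The small cluster on chromosome IV, at 4.5 to 7 Mb, lost its piRNAs as fully once 21ur-1430 is set aside. Its other 1511 loci summed to 949 and 948 RPM in WT and to 3.00 and 1.60 RPM in prde-1, 0.243% of WT (95% counting interval 0.155 to 0.356%). Of its 1512 loci 45 passed the filter for testing, apart from 21ur-1430 through their WT level. 21ur-5083, antisense in an intron of the ankyrin gene unc-44, had 71.5 and 40.5 RPM in WT and no prde-1 read, at least 204-fold lower. 21ur-8392, sense in an intron of the P4-ATPase gene tat-2, had 23.1 and 14.2 RPM and was at least 68.1-fold lower. 21ur-5543, sense in an intron of dhhc-13, a gene of the palmitoyltransferase family, had 14.9 and 16.4 RPM and was at least 57.1-fold lower. WT libraries differed more at 21ur-5083 and 21ur-8392 than at 21ur-5543. At all 3 loci, which were picked by their WT levels, the prde-1 bound of 0.274 RPM lay under every WT value.

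The reads that remained on the large cluster were thin and scattered. Its 8018 listed loci summed to 12255 and 11973 RPM in WT and to 21.5 and 20.5 RPM in prde-1, which is 0.174% of WT (interval 0.151 to 0.197%). The 230 prde-1 reads fell on 174 loci. Of these, 142 loci had 1 read, 26 had 2 and 6 had 3 or more, the highest being 21ur-6729 with 12. The prde-1 libraries had reads at 88 and 94 large-cluster loci and shared 8, which is 9.09% of the one list and 8.51% of the other. Of the 230 reads, 48 lay at loci without any WT read; over loci with a WT read the remainder was 0.137%.

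Over the whole large cluster, the strands did not differ beyond counting error. The plus strand kept 0.170% (interval 0.138 to 0.206%) on 104 reads and the minus strand 0.176% (0.147 to 0.210%) on 126 reads. The intervals overlap almost fully. From 17 Mb to the end they did not overlap. The plus strand kept 0.0377% (0.000933 to 0.207%) on 1 read and the minus strand 0.636% (0.343 to 1.073%) on 14 reads. Of these 14 reads, 8 lay at 21ur-5666, which had no WT read, so this difference rests largely on 1 locus. In each 1 Mb step from 13 to 17 Mb the intervals of the strands overlapped. On the small cluster without 21ur-1430 the plus strand kept 0.159% (0.0638 to 0.329%) on 7 reads and the minus strand 0.304% (0.178 to 0.478%) on 18 reads, again with overlapping intervals.

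Within the large cluster the remainder tended to rise from 13 to 17 Mb, with intervals of neighbouring steps that overlap. Its value beyond 17 Mb rests largely on a single locus. In steps of 1 Mb from 13 Mb, the remainder was 0.0808% (interval 0.04004 to 0.144%), 0.153% (0.120 to 0.193%), 0.157% (0.119 to 0.202%) and 0.247% (0.193 to 0.311%). From 17 Mb to the end it was 0.305% (0.170 to 0.505%). These values rest on 11, 73, 58, 73 and 15 prde-1 reads. Without 21ur-5666, which had 8 prde-1 reads and no WT read, the last value was 0.142%, and over loci with a WT read it was 0.121%. Without 21ur-6729 the value at 16 to 17 Mb was 0.207%. The first step stayed lowest, at 0.0582% over loci with a WT read, where the next 3 stood at 0.128%, 0.136% and 0.193%.

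**Figure D2:**
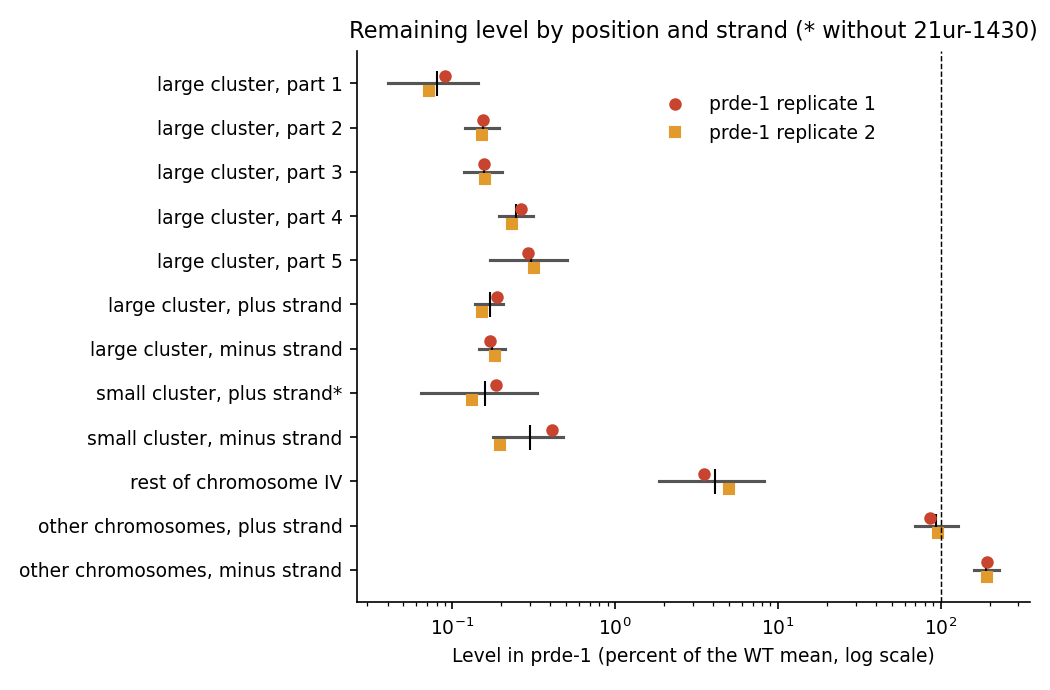
Level in prde-1 as a percent of the WT mean (log axis) for groups of loci by position and strand; circles and squares are the prde-1 libraries, the tick is the pooled value, and lines are exact 95% counting intervals. Parts 1 to 5 of the large cluster are its 1 Mb steps from left to right, the last running to the end; all cluster groups lie under 1%, and the dashed line marks the WT level.

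Within the large cluster the share that remained was smaller the more abundant the piRNA was in WT. To keep sorting and measuring apart, loci were grouped by WT replicate 1 and their level in prde-1 was set against WT replicate 2. Loci without a read in WT replicate 1 (4741 loci) kept 0.501% (interval 0.384 to 0.647%), on 64 prde-1 reads. Those above 0 and under 2 RPM kept 0.286% (0.211 to 0.380%), those of 2 to 5 RPM 0.236% (0.176 to 0.310%), and those of 5 to 10 RPM 0.131% (0.0833 to 0.195%). Those of 10 to 20 RPM kept 0.103% (0.0642 to 0.156%), and the 99 loci at 20 RPM or more kept 0.0464% (0.0274 to 0.0732%), on 18 prde-1 reads against 3249 WT reads. The order was the same in each prde-1 library: from 0.435% to 0.0527% in replicate 1 and from 0.567% to 0.0401% in replicate 2. Grouped by WT replicate 2 and measured in WT replicate 1, the values ran from 0.4997% down to 0.0516%, and, without the locus with the most prde-1 reads in each group, from 0.426% to 0.0468%. The same removal gave 0.438% to 0.0414% when grouping by WT replicate 1.

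This grouping was confined to the large cluster after the values were seen. Over all listed piRNAs the groups kept 1.58%, 0.967%, 0.373%, 0.329%, 16.04% and 0.0457%, the fifth group holding 21ur-1430. The number of loci with a prde-1 read ran the other way. In the lowest group 1.05% of loci had one and in the highest 15.2%. Among the 100 large-cluster piRNAs with the highest WT means (19.4 to 202 RPM), 83 had no prde-1 read, 13 had 1 and 4 had 2. These 100 held 8641 WT reads and 21 prde-1 reads. Whether stray matches of other RNAs add reads to each locus was not tested; 2459 of the 9742 listed loci overlap another listed locus on the same strand, and the sources used here do not say how the authors assigned such reads.

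**Figure D3:**
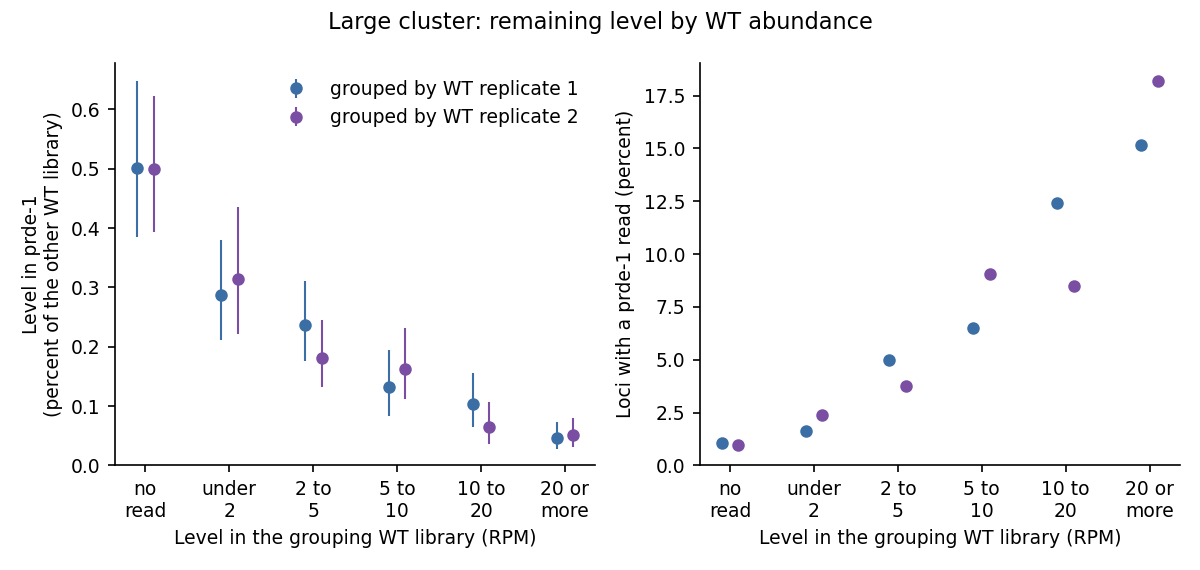
Large-cluster piRNAs grouped by their level in one WT library. Left, their summed level in prde-1 as a percent of the other WT library, with exact 95% counting intervals; right, the percent of loci with at least 1 read in prde-1. From the first to the last group the remainder falls from about 0.501% to 0.0464%, while the share of loci with a read rises from 1.05% to 15.2%.

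The remainder on the large cluster was similar across most kinds of annotated host. Loci outside coding genes kept 0.191% (interval 0.162 to 0.222%), loci antisense in coding introns 0.131% (0.0898 to 0.184%) and loci sense in coding introns 0.112% (0.0697 to 0.169%). Loci sense in coding exons kept 0.153% (0.0183 to 0.555%), on 2 prde-1 reads. Loci antisense to coding exons kept 0.624% (0.318 to 1.098%), on 12 reads at 8 loci, and this interval lies above those of the intronic groups and of loci outside coding genes.

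The 103 loci elsewhere on chromosome IV were nearly silent in WT, at 25.3 and 17.5 RPM, and stood at 0.749 and 1.07 RPM in prde-1 (4.25% of WT, but 127% after TMM rescaling). Of their 10 prde-1 reads, 9 were at loci without a WT read. None of these loci passed the filter for testing.

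Loci on the other chromosomes were not lost as a group. The 109 loci summed to 85.6 and 90.9 RPM in WT and to 143 and 145 RPM in prde-1, so that both prde-1 libraries lay above both WT libraries, at 163% of WT (interval 142 to 191%). By chromosome, prde-1 stood at 315% of WT on chromosome III (224 to 463%) and 263% on I (134 to 649%). It stood at 171% on X (129 to 260%), 159% on II (123 to 204%) and 32.6% on V (21.9 to 47.2%). The locus with the most prde-1 reads held 456 of 523 on III, 73 of 106 on I and 318 of 333 on X. On II it held 426 of 542 and on V 42 of 73, so these values describe few loci. On the minus strand the level was 192% (161 to 229%) and on the plus strand 91.1% (69.7 to 128%). Of the 1327 minus-strand prde-1 reads, 456 lay at 21ur-10824, 426 at 21ur-10492 and 318 at 21ur-9719. The minus-strand level and the sum over all 109 loci therefore rest largely on these loci. Of the 12 tested, 5 were called higher, 2 lower and 5 neither. These 12 include loci that passed the filter only through their mutant levels, so their counts are a description of the loci that passed.

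Only 17 loci had at least 10 prde-1 reads in all, and they held 4025 of the 4314 prde-1 reads (93.3%). Of these loci 15 lie off chromosome IV. By annotation, 5 are antisense to a long intervening noncoding RNA exon, 4 are antisense to a coding exon, 3 are sense to a coding exon and 2 lie in a coding intron. All of these lie off chromosome IV. Of the 109 listed loci there, 7 are antisense to such a noncoding RNA exon, 26 antisense to a coding exon and 31 sense to one. A further 11 lie sense and 5 antisense in a coding intron. By strand, 9 are on the minus and 8 on the plus strand. In 12 of the 17 both prde-1 libraries lay above both WT libraries. That requires a read in both prde-1 libraries, which 30 of all 9742 listed loci had. At the 5 of the 17 without a WT read, such reads alone meet it. The loci were picked by their prde-1 reads, so the count of 12 is a description.

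The first of them is a microRNA locus. 21ur-1430 (chromosome IV 5566428 to 5566448, plus strand) lies within the precursor of mir-790 on the same strand. It stood at 11.9 and 7.66 RPM in WT and at 218 and 234 RPM in prde-1. Neither prg-1, at 16.5 and 22.9 RPM, nor kin-3, at 5.87 and 24.9 RPM, came near the prde-1 libraries. The rise over WT was 23.0-fold (log2 difference 4.42 with SE 0.65; adjusted p in limma = 0.0012), on 2472 reads against 23.

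Loci in coding exons were the next. 21ur-10824 (chromosome III 2295350 to 2295370, minus strand) lies sense in the 3′ UTR of Y54F10BM.9. It had 11.9 and 12.04 RPM in WT and 37.3 and 45.8 RPM in prde-1, a 3.47-fold rise (log2 difference 1.71 with SE 0.20; adjusted p in limma = 4.4e-04). Starting 2 nt away, 21ur-11898 had 11 prde-1 reads and no WT read, next to the 456 of 21ur-10824. Its prde-1 mean of 0.994 RPM lay under the WT bound of 1.33 RPM. 21ur-10492 (chromosome II 13247294 to 13247314, minus strand), antisense to coding sequence of F15D4.5, had 19.4 and 14.2 RPM in WT and 42.2 and 35.8 RPM in prde-1 (2.32-fold; log2 difference 1.179 with SE 0.23; adjusted p in limma = 0.0038).

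A second locus in the same gene did not follow it. 21ur-10687 (13246773 to 13246793, minus strand, also antisense to coding sequence of F15D4.5) had 4.47 and 6.57 RPM in WT and 3.18 and 3.92 RPM in prde-1. All prde-1 values lay under the WT values, but the difference did not pass (log2 difference -0.50 with SE 0.26; adjusted p in limma = 0.115), and TMM rescaling turned it to 3.59. 21ur-12864 lies sense in the 5′ UTR of clec-119, a gene of the C-type lectin family, and had 0 and 4.38 RPM in WT and 2.81 and 3.92 RPM in prde-1 (adjusted p = 0.428). 21ur-9360 lies antisense to coding sequence of hcp-3, the gene of the centromeric histone H3 variant. It had 0.745 and 1.09 RPM in WT and 0.749 and 1.78 RPM in prde-1, on 2 and 14 reads. 21ur-13757, antisense to coding sequence of CD4.8, had no WT read and 0.937 and 1.07 RPM in prde-1, on 11 reads. Those prde-1 values lie under the WT bound of 1.33 RPM, and neither locus was tested.

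The summed level of loci antisense to long intervening noncoding RNAs was not lost. The 7 such loci off chromosome IV summed to 16.4 and 19.7 RPM in WT and to 42.3 and 39.4 RPM in prde-1. Of their 447 prde-1 reads, 318 lay at 21ur-9719. Their sums were higher still in prg-1, at 92.8 and 104 RPM, and in kin-3, at 99.7 and 87.2 RPM. 21ur-9719 (chromosome X 9072394 to 9072414, minus strand, antisense to linc-22) had 10.4 and 16.4 RPM in WT and 28.5 and 29.6 RPM in prde-1 (2.16-fold; log2 difference 1.09 with SE 0.27; adjusted p in limma = 0.0105, range over the alternatives 8.6e-06 to 0.287). Its groups do not overlap, but the call ended without the filter (adjusted p = 0.287) and without prde-1 replicate 1 or 2 (0.0648 and 0.0767). 21ur-15566, also antisense to linc-22, had 13 prde-1 reads and no WT read and was not tested.

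21ur-13684 (chromosome V 16319095 to 16319115, plus strand, antisense to linc-59) had no WT read and 4.12 and 3.57 RPM in prde-1, at least 2.89-fold higher against the WT bound. It passed the filter only through the mutant libraries, which bears on the test as at 21ur-15587, described next. It just missed the threshold in limma (log2 fold change 2.27, SE 0.89, adjusted p = 0.0516) and passed in edgeR, run on recovered reads (adjusted p = 1.1e-04), with a range over the alternatives of 1.1e-04 to 0.201. 21ur-9823 (chromosome III 1371141 to 1371161, antisense to linc-24) had 0.745 and 2.19 RPM in WT and 4.12 and 2.85 RPM in prde-1 (limma adjusted p = 0.0436, range 1.6e-04 to 0.243). This call ended among others with edgeR (0.0725), DESeq2 (0.243) and the replicate block (0.0706), and on leaving out WT replicate 1 (0.226) or either prde-1 library (0.177 without replicate 1, 0.0609 without replicate 2). 21ur-8285, antisense to linc-11, had 5.21 and 1.09 RPM in WT and 3.37 and 2.85 RPM in prde-1, with groups that overlap (adjusted p = 0.856).

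In an intron of ccct-1 on chromosome I, sense to it and antisense to a pseudogene, 21ur-15587 had 0.745 and 0 RPM in WT and 6.74 and 6.597 RPM in prde-1 (log2 difference 2.54 with SE 0.73; adjusted p in limma = 0.0181, range over the alternatives 1.1e-05 to 0.140). It passed the filter through its mutant levels, mainly those in prde-1, so the call is not independent of its selection. Its pooled ratio was 15.05 (95% interval 2.62 to 602), on 73 reads against 1. The call ended with a pseudocount of 0.1 (0.0663) and without WT replicate 1 or 2 (0.0710 and 0.140) or prde-1 replicate 1 or 2 (0.0667 and 0.0648). 21ur-15569, which starts 2 nt downstream of it, had 18 prde-1 reads (1.12 and 2.14 RPM) and no WT read. 21ur-12937, in an exon of F21C3.7, had 0.745 and 1.09 RPM in WT and 0.375 and 0.178 RPM in prde-1. These are 2 WT reads and 3 prde-1 reads (limma adjusted p = 0.537). 21ur-12937 passed the filter only with the help of a kin-3 library, where it stood at 5.87 RPM.

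Among the other chromosomes, only V had a lower summed level in prde-1 than in WT, and this rests on few loci. Of its 47 WT reads, 21 were at 21ur-10895 and 18 at 21ur-12557, while 21ur-13684 had no WT read and 42 prde-1 reads. The level on V was also below WT in prg-1 (32.2%) and kin-3 (53.2%). 21ur-10895 (chromosome V 12386732 to 12386752, minus strand, outside coding genes) fell from 11.9 and 5.47 RPM in WT to 1.31 and 0.713 RPM in prde-1 (log2 difference -2.20 with SE 0.52; adjusted p in limma = 0.0083), although TMM rescaling turned its log2 fold change to 1.46. Without WT replicate 1 the call ended (adjusted p = 0.0771; range under all settings tried 5.5e-09 to 0.0771). Its prg-1 libraries, at 7.22 and 2.86 RPM, and its kin-3 libraries, at 5.87 and 3.56 RPM, lay above both prde-1 libraries. 21ur-12557, also on chromosome V, was the other one called lower, with 18 WT reads and 6 reads in the deeper prde-1 libraries.

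**Figure D4:**
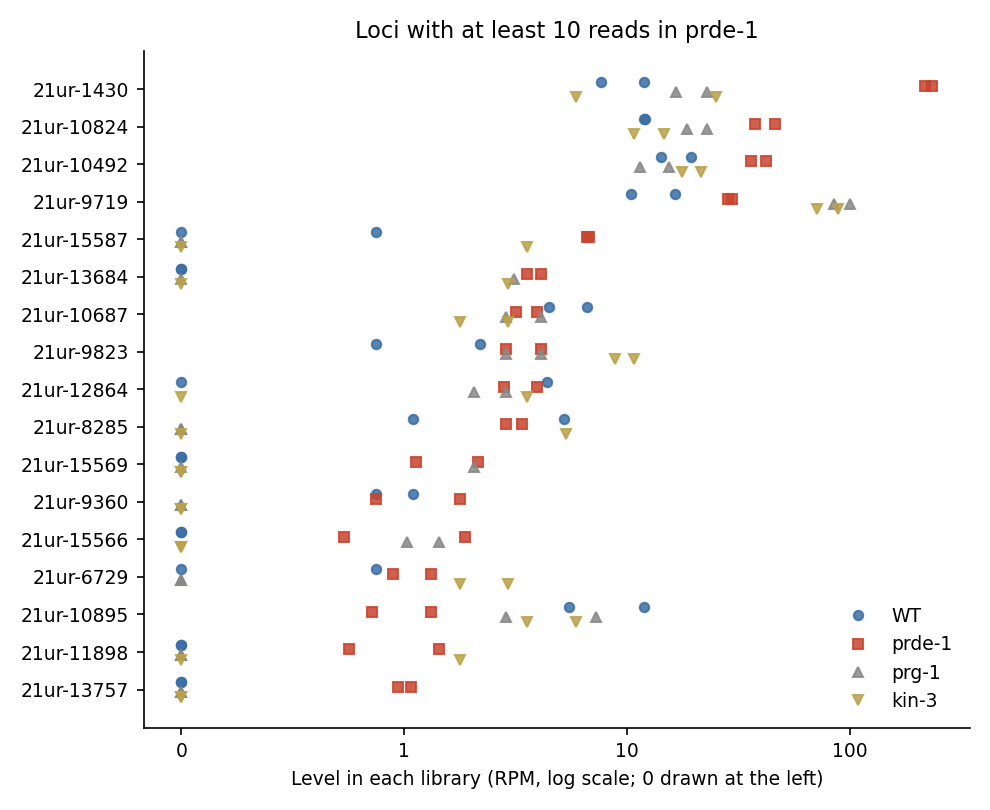
Level in each library (RPM, log axis with 0 drawn at the left) of the 17 loci with at least 10 prde-1 reads, 2 points per genotype. At 21ur-1430, 21ur-10824 and 21ur-10492 both prde-1 libraries lie above all other libraries; at 21ur-9719 the prg-1 and kin-3 libraries lie above those of prde-1.

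Set directly against the other genotypes, prde-1 gave no call with a pseudocount of 1, the 1 RPM filter, all libraries and no rescaling, but other settings gave some. Limma called none of 695 piRNAs between prde-1 and prg-1 and none between prde-1 and kin-3 (0.00% in each direction), with 9 and 8 at an unadjusted p under 0.05. No other tool was run on these contrasts. 21ur-1430 was 3.47 higher than in prg-1 on the log2 scale (SE 0.65, unadjusted p = 0.0031, limma adjusted p = 0.359). With the test confined to the 31 piRNAs of at least 10 RPM, 4 were called against prg-1 and 3 against kin-3. TMM rescaling gave 9 and 8 calls. Without prg-1 replicate 1 or 2 there were 1 and 2 calls against prg-1, and without kin-3 replicate 1 or 2 there were 5 and 9 against kin-3.

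The remainder on the large cluster was lower in prde-1 than in both other genotypes in every library. It was 21.5 and 20.5 RPM in prde-1, 56.7 and 44.3 RPM in prg-1, and 64.5 and 33.8 RPM in kin-3 (exact permutation p = 0.333 for each, the smallest that 2 against 2 can give). As a percent of WT these are 0.174%, 0.417% and 0.406%. Off chromosome IV, WT stood at 85.6 and 90.9 RPM, and the mutant genotypes stood higher and close together. They were at 143 and 145 RPM in prde-1, 144 and 149 RPM in prg-1, and 155 and 142 RPM in kin-3. As a percent of WT these are 163%, 166% and 169%. The make-up behind these equal sums differed, since 21ur-9719 held 29.0 RPM of it in prde-1, 92.3 RPM in prg-1 and 79.6 RPM in kin-3.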

How the data were processed

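Small RNA reads of whole worms were sequenced after PIR-1 treatment, which makes triphosphorylated small RNAs ligatable; cutadapt 1.18 and Bowtie 1.2.1.1 were used, per the submitters' processing notes. The authors deposited 1 table in RPM; 100% of the positive values of each WT and prde-1 library were whole multiples of 1 read (tolerance 0.01 reads), which gave reads and scaling totals. The sources used here state neither what that total covers, nor the genome build, nor how multiply matching reads were handled. Positions were matched to the Ensembl release 115 annotation of WBcel235 (9620 of 9742 by coordinates and strand). The upstream motif and first base were not analysed here. Single piRNAs were tested with limma 3.58.1 in R 4.3.3 (trended prior, log2(RPM + 1), all 8 libraries, genotype only, no rescaling, two-sided); for low piRNAs the pseudocount makes the fold change too small. edgeR 4.0.16 and DESeq2 1.42.0 on the recovered reads of WT and prde-1 were alternatives, and limma was tested on simulated data. Sums are given per library with exact 95% intervals (conditional binomial) on pooled reads. A chi-square test over piRNAs with at least 10 reads gave p = 0.141 between the WT libraries (647 piRNAs) and 0.118 between the prde-1 libraries (17); the libraries of a pair differ in their totals and were each counted as a sample. Named piRNAs are the 10 highest in WT, those called higher, those with at least 10 prde-1 reads, those tested and not called lower, the 3 highest of the small cluster and of other chromosomes, and 21ur-1, listed at 0 in all libraries. The loci 21ur-2486, 21ur-5666, 21ur-9599, 21ur-12556 and 21ur-12557 were chosen after their values were seen. Members, lists and tests were chosen with earlier results of these data known. No cell type markers were measured.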

Additional observations from a re-analysis of the deposited data

How the results depend on the processing

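The number called lower was 683 of 695. It was 2216 of 4878 without a filter, 27 of 31 with a mean of at least 10 RPM, and 1892 of 2307 with a WT mean of at least 1 RPM, where the number tested sets the count; edgeR and DESeq2 each gave 683 lower and 6 higher. Leaving out 1 library gave 675 to 680 lower and 3 to 5 higher, with 3 higher without either prde-1 replicate. TMM rescaling moved the median log2 fold change from -3.06 to -1.56 and gave 10 higher. The deviations of same-numbered WT and prde-1 libraries gave r = 0.00611 across 695 piRNAs. Only 227 of all listed piRNAs had a prde-1 read, so most of these prde-1 deviations are 0. The value of r therefore cannot tell whether the numbers pair the libraries. With the replicate block 682 were lower and 6 higher. Against prg-1, calls went from 0 to 2 with a pseudocount of 0.1, 4 with a mean of at least 10 RPM, 9 with TMM and 0 to 2 leaving out 1 library. Against kin-3 they went from 0 to 1, 3, 8 and 0 to 9 (5 and 9 without kin-3 replicate 1 or 2). edgeR and DESeq2 were not run on these 2 contrasts.

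The total of 2.99% of WT was 1.28% without 21ur-1430, 3.08% with a WT mean of at least 1 RPM and 89.9% with TMM. In the same order of filter and TMM, the large cluster went from 0.174% to 0.118% and 5.22%, the small cluster from 23.8% to 31.1% and 715%, the rest of chromosome IV from 4.25% to 0% and 127%, and the other chromosomes from 163% to 157% and 4908%. Over loci with a WT read these were 0.137% (large cluster), 0.416% (rest of IV) and 152% (other chromosomes). Without the locus with the most prde-1 reads they were 0.164%, 2.54% and 134%, and 0.243% for the small cluster (without 21ur-1430). The plus strand went from 4.29% to 0.559% without 21ur-1430 and 129% with TMM, the minus strand from 1.88% to 1.93% with the filter and 56.7% with TMM. Leaving out 1 library gave 158% to 168% off chromosome IV and 1.86% to 1.91% on the minus strand. Thinning took the number of piRNAs with a read in prde-1 to 37.3. By WT abundance, the first 5 groups over all listed piRNAs became 1.501%, 0.704%, 0.491%, 11.5% and 4.89% when sorted by WT replicate 2, and 0.501%, 0.286%, 0.236%, 0.131% and 0.103% on the large cluster only.

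Over 26 named piRNAs and 350 alternatives, 314 kept direction and call, 18 lost and 8 gained the call, and 10 reversed. With TMM the log2 fold change became 3.59 at 21ur-10687, 1.46 at 21ur-10895, 2.06 at cel-piR-15414 and 1.34 at 21ur-12937. At 21ur-8285 it became -0.19 with edgeR and -0.13 with DESeq2, and at cel-piR-15414 0.36 with a pseudocount of 0.1. Leaving out 1 library gave -0.31 to 2.11 at 21ur-12864, -0.60 to 0.97 at 21ur-8285 and -1.08 to 0.62 at cel-piR-15414. The cause was not tested. A lone library was assumed to vary like the other genotypes. Restriction to loci with a WT read, removal of single loci, the large cluster alone and TMM for the percentages were chosen after seeing the data. In WT, depth limits a piRNA without a read to 1.33 RPM.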

Other observations

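Among the low loci on chromosome IV, 21ur-5666 had 8 prde-1 reads and no WT read, 21ur-9599 in the small cluster had 6 and none, and 21ur-12556 outside both clusters had 4 and none. 21ur-2486 on the large cluster had 4 prde-1 reads against 9 WT reads. None of these 4 loci passed the filter for testing, and they were chosen after their values were seen.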
